A study of Mus musculus with 32 samples.

Results

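Glycolysis splits glucose into pyruvate in the cytosol, and lactate dehydrogenase turns pyruvate into lactate. Hexokinases trap glucose in the cell as glucose 6-phosphate, phosphofructokinases carry out the committed step, and phosphoglycerate kinase and pyruvate kinase make ATP. Several steps have more than 1 isozyme, each encoded by its own gene. In the embryonic kidney, high glycolysis is known as a mark of self-renewing nephron progenitors, and its decline goes with their differentiation into tubules, where the proximal part comes to make glucose instead. The genes examined here are 10 glycolysis enzyme genes, listed by symbol and found by Ensembl identifier among the 55806 genes of 4 count tables: *Hk1*, *Hk2*, *Gpi1*, *Pfkl*, *Pfkp*, *Aldoa*, *Pgk1*, *Eno1*, *Pkm* and *Ldha*. All 10 had enough counts to be tested in each of the 12 comparisons. The choice rule uses no measured value, but the genes were chosen with earlier results of these data known.

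ENL, encoded by *Mllt1*, reads acetylated histones through its YEATS domain. In the conditional knock-in alleles Enl T1 and Enl T3, each with a small change in this domain, Cre removes a wildtype cassette so that 1 copy of the gene makes the mutant protein. Polyadenylated RNA of mouse embryonic kidney was sequenced in 32 libraries. Whole E18.5 kidneys came from Six2-TGCtg/+;Enl+/+ (ENL WT, 2 libraries), Six2-TGCtg/+;EnlT1/+ (Six2-ENL T1, 2) and Six2-TGCtg/+;EnlT3/+ embryos (Six2-ENL T3, 2), and from Foxd1GC/+;Enl+/+ (ENL WT, 3) and Foxd1GC/+;EnlT1/+ embryos (Foxd1-ENL T1, 3). Sorted cells that carried the tdTomato reporter came from the Six2 lineage at 2 stages, E14.5 and E18.5 (per stage 3 libraries of ENL WT and 3 of T1) and from the Foxd1 lineage at E18.5 (4 ENL WT and 4 T1). Controls carried the same Cre as mutants. *Six2-TGC* is a BAC transgene that expresses Cre in nephron progenitors and also holds *Six3*, and *Foxd1-GC* is a knock-in that expresses Cre in stromal progenitors and takes away 1 copy of *Foxd1*. Cells kept the reporter after they left the progenitor state, so the sorted Six2 libraries hold progenitors and their descendants. Fewer cells of a type and less RNA per cell cannot be told apart in such bulk libraries.

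Total counts ran from 76510702 to 137888792 in sorted Six2 cells, 106005614 to 157266455 in whole Six2 kidneys, 67137194 to 79343015 in whole Foxd1 kidneys and only 2557443 to 3508381 in sorted Foxd1 cells. The 10 genes took 0.335% to 0.529% of the counts of a library. The 8 nephron progenitor markers summed to between 2367 and 2669 CPM (a gene's counts relative to the TMM-scaled total of its library) in ENL WT Six2 cells of E14.5, between 1146 and 1463 in those of E18.5, and to 145 to 201 in ENL WT Foxd1 cells. The 8 stroma markers summed to between 7079 and 9512 CPM in ENL WT Foxd1 cells against 332 to 653 in ENL WT Six2 cells, so both sorts carried the markers of their labels. *Mllt1* was not called different between genotypes in any comparison, with log2 fold changes of -0.33 to -0.02. The mutant allele is transcribed, so this level does not check the mutation.

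Promoters are shown for *Hk2*, *Pfkp* and *Pgk1*, which rose together between E14.5 and E18.5, and for *Eno1*, which fell. Each is the RefSeq window (GRCm38.p6) nearest to the start of the gene, 250 bases before and 50 after the start, written 5′ to 3′ on the strand of the gene. They lie at chr6:82774405-82774704 (*Hk2*, minus strand), chr13:6648722-6649021 (*Pfkp*, minus), chrX:106186850-106187149 (*Pgk1*, plus) and chr4:150236458-150236757 (*Eno1*, plus). Capitals mark ACGTG and GCGTG, the core of the hypoxia response element in its A and G forms, on either strand (CACGT and CACGC on the other). The letters do not overlap between the forms, but ACGTG on both strands overlaps itself in CACGTG.
Hk2: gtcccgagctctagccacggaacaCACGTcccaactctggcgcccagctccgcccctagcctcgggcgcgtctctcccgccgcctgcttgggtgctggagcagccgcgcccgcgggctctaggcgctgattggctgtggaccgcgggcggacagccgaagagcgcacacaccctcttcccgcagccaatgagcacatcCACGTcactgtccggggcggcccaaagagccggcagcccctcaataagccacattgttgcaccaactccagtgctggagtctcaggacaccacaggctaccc
Pfkp: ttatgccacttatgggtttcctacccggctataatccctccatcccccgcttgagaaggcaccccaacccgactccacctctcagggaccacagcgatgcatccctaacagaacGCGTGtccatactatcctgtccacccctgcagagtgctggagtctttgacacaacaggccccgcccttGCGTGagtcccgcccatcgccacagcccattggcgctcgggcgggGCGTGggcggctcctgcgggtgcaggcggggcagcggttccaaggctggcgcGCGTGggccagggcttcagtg
Pgk1: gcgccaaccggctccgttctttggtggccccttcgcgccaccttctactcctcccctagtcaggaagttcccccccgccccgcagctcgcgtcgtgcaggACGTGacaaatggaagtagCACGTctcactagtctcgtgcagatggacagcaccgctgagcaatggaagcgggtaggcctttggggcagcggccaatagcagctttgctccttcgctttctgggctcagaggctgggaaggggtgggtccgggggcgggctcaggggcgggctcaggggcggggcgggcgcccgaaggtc
Eno1: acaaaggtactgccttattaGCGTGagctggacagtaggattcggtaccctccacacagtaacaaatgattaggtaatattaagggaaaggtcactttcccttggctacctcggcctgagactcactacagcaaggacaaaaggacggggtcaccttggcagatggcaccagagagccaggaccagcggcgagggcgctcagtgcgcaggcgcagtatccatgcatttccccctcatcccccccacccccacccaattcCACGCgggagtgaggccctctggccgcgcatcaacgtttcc
*Hk2* and *Pgk1* held 2 ACGTG each, *Pfkp* held 4 GCGTG and *Eno1* held 2 GCGTG. All 10 genes matched a window, and 6 of the 10 nearest windows held either form, against 43.8% of 32851 windows of the same length. ACGTG was in 3 of the 10 and GCGTG in 4, against 19.6% and 32.4% of all windows. The 3 genes that rose and the 1 that fell all held such letters. A match is a description of sequence, not a binding site.

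Which of these genes change as the Six2 lineage develops was asked in sorted ENL WT cells, E18.5 against E14.5. *Hk2*, *Pfkp* and *Pgk1* rose and *Eno1* fell, each by more than 2-fold, and the other 6 genes moved by less. A gene counted as called when its adjusted p was under 0.01 and it moved by over 2-fold (edgeR quasi-likelihood test, 12 libraries in 1 fit, adjusted over 25222 genes). The 4 of 10 genes called here stand beside 45.5% of all tested genes. All 10 had an adjusted p under 0.01, as did 64.0% of all tested genes, so neither share sets the list apart. The median log2 fold change was 0.13 over the 10 genes and 0.02 over all tested genes. Stage cannot be told apart from dissociation, since E14.5 kidneys were dispersed with trypsin and E18.5 kidneys with collagenase. Nor can it be told apart from depth. Over both genotypes, total counts were 115625561 to 137888792 at E14.5 and 76510702 to 92026288 at E18.5. Summed levels of 8 dissociation stress genes were 1894 to 3209 CPM at E14.5 and 3136 to 3799 at E18.5.

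Hexokinases carry out the first step. *Hk2*, the inducible form, stood at 52.4, 47.4 and 47.7 CPM in the 3 ENL WT libraries of E14.5 and at 164, 153 and 149 at E18.5. The stages did not overlap, and the log2 fold change was 1.66 (SE 0.06, adjusted p = 1.36e-11). *Hk1*, the form that most cells use, stood at 94.0, 114 and 109 CPM at E14.5 and at 61.6, 62.4 and 66.1 at E18.5. Its level was lower in all 3 late libraries, by a log2 fold change of -0.74 (SE 0.07, adjusted p = 1.28e-07) that stayed under 2-fold. Per kb of exon, *Hk2* made up 40.1% ± 3.8 (SD, n = 3) of the sum of *Hk1* and *Hk2* at E14.5 and 77.8% ± 1.5 at E18.5. *Hk2* was the lower of the pair in all 3 early libraries and the higher in all 3 late ones.

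*Gpi1*, which turns glucose 6-phosphate into fructose 6-phosphate, stood at 174, 174 and 179 CPM at E14.5 and at 341, 306 and 283 at E18.5 (log2 fold change 0.82, SE 0.07, adjusted p = 1.33e-07). The stages did not overlap, but the change was below the fold threshold. Of the phosphofructokinases, *Pfkp* (platelet type) stood at 8.59, 9.06 and 12.7 CPM at E14.5 and at 48.1, 47.4 and 43.3 at E18.5. It was the gene of the 10 with the largest log2 fold change, 2.19 (SE 0.13, adjusted p = 7.85e-10), and also the lowest of them per kb at both stages. *Pfkl* (liver type) moved the other way, from 335, 372 and 354 CPM to 253, 212 and 225 (log2 fold change -0.62, SE 0.09, adjusted p = 2.49e-05), under the fold threshold. *Pfkp* made up 1.06% ± 0.23 of the 3 phosphofructokinase genes per kb at E14.5 and 5.84% ± 0.49 at E18.5. The third gene was *Pfkm* (muscle type). These shares divide by the union of annotated exons, 13401 bases in *Pfkp*, 6675 in *Pfkl* and 3340 in *Pfkm*, and depend on these lengths.

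*Aldoa*, which splits fructose 1,6-bisphosphate, stood at 420, 425 and 444 CPM at E14.5 and at 688, 615 and 611 at E18.5 (log2 fold change 0.57, SE 0.08, adjusted p = 2.21e-05), a change without overlap but below the fold threshold. *Pgk1*, the phosphoglycerate kinase of most tissues, rose from 174, 169 and 169 CPM to 646, 607 and 596 (log2 fold change 1.85, SE 0.08, adjusted p = 4.09e-11). *Eno1*, the enolase of most tissues, fell from 1107, 1139 and 1176 CPM to 434, 371 and 346 (log2 fold change -1.57, SE 0.09, adjusted p = 1.01e-09). In both genes the 2 stages lay far apart. *Pkm*, which encodes the muscle forms of pyruvate kinase, stood at 1531, 1515 and 1492 CPM at E14.5 and at 1133, 1083 and 1157 at E18.5 (log2 fold change -0.43, SE 0.06, adjusted p = 2.98e-05). *Ldha*, the lactate dehydrogenase subunit that favours lactate formation, stood at 1077, 1110 and 1110 CPM and then at 955, 854 and 851 (log2 fold change -0.31, SE 0.08, adjusted p = 0.00257). Both were lower in all late libraries by less than 2-fold, and counts per gene do not tell the *Pkm* splice forms M1 and M2 apart.

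**Figure D1:**
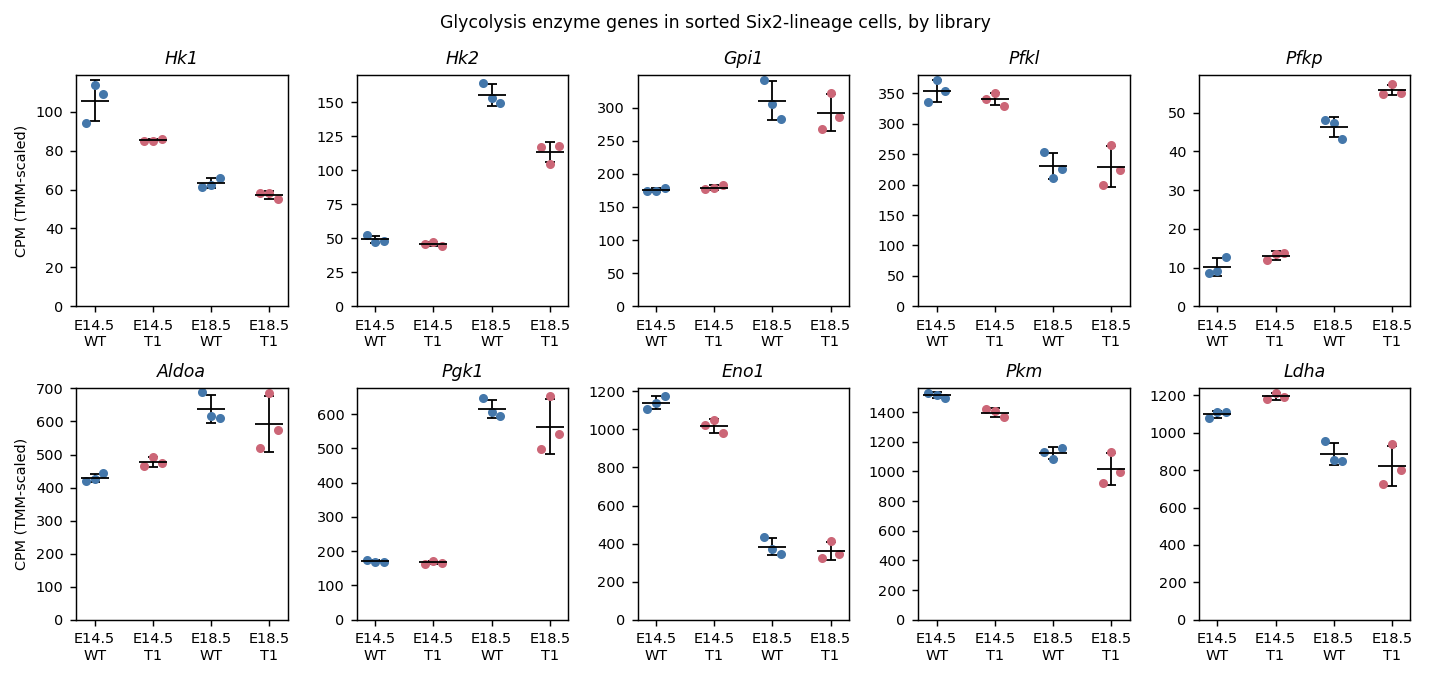
Levels of the 10 glycolysis genes in the 12 sorted Six2 libraries, in CPM from 0 on the vertical axis of each panel, by stage and genotype; points are libraries and lines are the mean ± SD of 3. *Hk2*, *Pfkp* and *Pgk1* sit higher at E18.5 than at E14.5 and *Eno1* lower, with no overlap between stages.

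Reads of several of these genes are shared with near copies elsewhere in the genome (at least 90% identity over at least 200 bases), to which counting can assign them. *Eno1* had 8 such copies, *Pkm* 8, *Pgk1* 4, *Gpi1* 1, *Aldoa* 5 and *Ldha* 18, while *Hk1*, *Hk2*, *Pfkl* and *Pfkp* had 0. In ENL WT Six2 cells the copies of *Eno1* held 49.8% of the summed reads at E14.5 and 62.2% at E18.5, and those of *Pgk1* 39.8% and 12%. With all copies added, *Eno1* went from 2271 ± 57.2 CPM (SD, n = 3) to 1016 ± 87.9 and *Pgk1* from 283 ± 3.03 to 700 ± 34.9. The log2 fold changes were then -1.16 and 1.30, and both stayed called. The split between gene and copies also differed between tables (*Pgk1* copies 2.05% in ENL WT sorted Foxd1 cells and 32.2% in whole Foxd1 kidneys), so levels of these genes are not comparable across experiments.

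**Figure D2:**
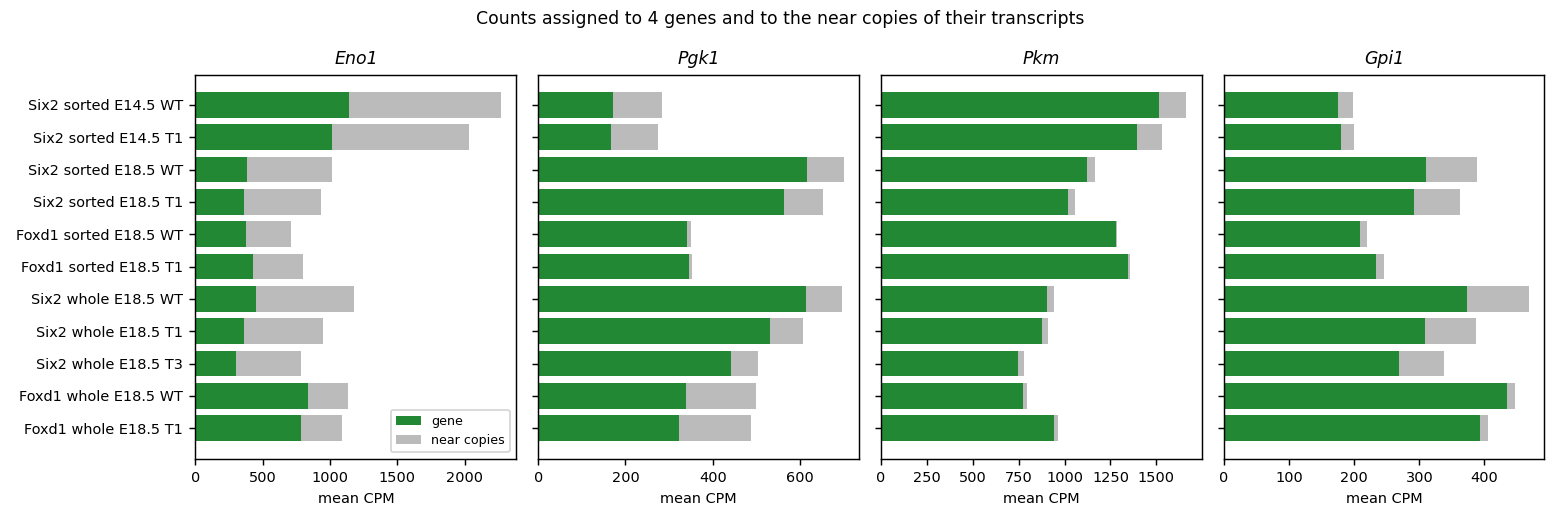
Mean CPM assigned to *Eno1*, *Pgk1*, *Pkm* and *Gpi1* (green) and to their near copies (grey) in each of the 11 groups, stacked from 0. In ENL WT Six2 cells the grey part of the *Eno1* sum is 49.8% at E14.5 and 62.2% at E18.5.

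Exon length went with the stage difference. Over protein-coding genes, the median log2 fold change in ENL WT cells was -0.56 in the tenth with the shortest exons and 0.89 in the tenth with the longest. *Pfkp* has 13401 exon bases, the most of the 10, and *Pgk1* 2244, the fewest. With an offset for 10 classes of exon length, *Pfkp* had a log2 fold change of 1.18, and *Hk1* (8532 bases) passed the fold threshold at -1.12. *Hk2*, *Pgk1* and *Eno1* were called under all 19 settings, with ranges of 1.45 to 1.79, 1.30 to 2.16 and -1.71 to -1.16.

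Per kb, the 10 genes at E14.5 in ENL WT cells stood in the order *Ldha* (332 CPM per kb), *Pkm* (302), *Eno1* (212), *Aldoa* (148), *Pgk1* (76.0), *Pfkl* (53.0), *Gpi1* (27.2), *Hk1* (12.4), *Hk2* (8.24) and *Pfkp* (0.756), with no overlap between neighbours. The order at E18.5 was *Pgk1* (275), *Ldha* (268), *Pkm* (225), *Aldoa* (219), *Eno1* (71.4), *Gpi1* (48.1), *Pfkl* (34.4), *Hk2* (26.0), *Hk1* (7.43) and *Pfkp* (3.45). There the ranges of *Pgk1* and *Ldha* overlapped, as did those of *Pkm* and *Aldoa*. *Ldha*, *Pkm* and *Aldoa* stayed among the 4 highest, and *Pgk1* went from the fifth place to the first. Both orders divide by the union of all annotated exons (5379 bases in *Eno1*, 3310 in *Ldha*, 2244 in *Pgk1*), not by the length of the transcripts present. The places therefore depend on these lengths. Both orders also leave out reads assigned to near copies. In these cells the copies held 49.8% of the summed *Eno1* reads at E14.5 and 62.2% at E18.5, and 39.8% and 12% for *Pgk1*. The places and the lack of overlap therefore hold only for reads assigned to the gene itself, and that of *Eno1* at E14.5 depends on this assignment.

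The other genes of the pathway moved in both directions over the same interval. Of 15 other glycolysis enzyme genes, 6 rose and 2 fell in ENL WT cells, with a median log2 fold change of 0.26 against 0.02 over all tested genes. *Eno3*, the muscle enolase, fell by 2.33 on the log2 scale, and *Eno2*, the neuronal enolase, rose by 2.32. *Gapdh*, the glyceraldehyde phosphate dehydrogenase (0.18, adjusted p = 0.0113), and *Tpi1*, the triose phosphate isomerase (0.20, adjusted p = 0.0326), did not pass the threshold.

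Among 18 carriers and regulators of flux, 4 rose and 1 fell. *Pfkfb3*, which makes an activator of phosphofructokinase, rose from 15.6, 14.2 and 15.6 CPM to 144, 137 and 110 (log2 fold change 3.11, adjusted p = 2.6e-12). *Pdk4*, a kinase that turns off pyruvate dehydrogenase, rose by 2.83, and *Txnip*, which limits glucose uptake, by 2.14. Of 7 gluconeogenesis genes, 4 rose and 0 fell. *Fbp1*, the fructose bisphosphatase that opposes phosphofructokinase, was at 0 to 0.0153 CPM at E14.5 and at 45.3, 67.0 and 46.6 at E18.5. Of 12 hypoxia-response genes outside glycolysis, 6 rose and 1 fell, among them *Ndrg1* (4.72) and *Adm* (5.28). Beside these, 8 of 8 proximal tubule markers rose and 6 of 8 progenitor markers fell (1 rose), and 8 of 10 proliferation genes fell (1 rose, *Mki67*). Of the other marker lists in ENL WT cells, the counts that rose and fell were 4 and 1 of 7 for endothelium, 1 and 4 of 8 for macrophages, 2 and 0 of 8 for red cells, 0 and 2 of 8 for stroma, 2 and 1 of 8 for the ureteric tree, and 1 and 2 of 8 tested for skeletal muscle. Of the 8 stress genes, 4 rose and 1 fell. The part of these cell types in the changes of the 10 genes was not tested.

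In Six2-ENL T1 cells the same 4 genes of the 10 were called, beside 44.2% of all tested genes, and 10 of 10 had an adjusted p under 0.01 beside 63.4%. The log2 fold changes were 1.31 for *Hk2*, 2.09 for *Pfkp*, 1.75 for *Pgk1* and -1.50 for *Eno1*. The median over the 10 was -0.07, against 0.07 over all tested genes. Of the other lists, 5 rose and 1 fell of the 15 glycolysis enzymes, 5 and 0 of the 18 carriers and regulators, 4 and 1 of the 7 gluconeogenesis genes and 6 and 1 of the 12 hypoxia-response genes.

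**Figure D3:**
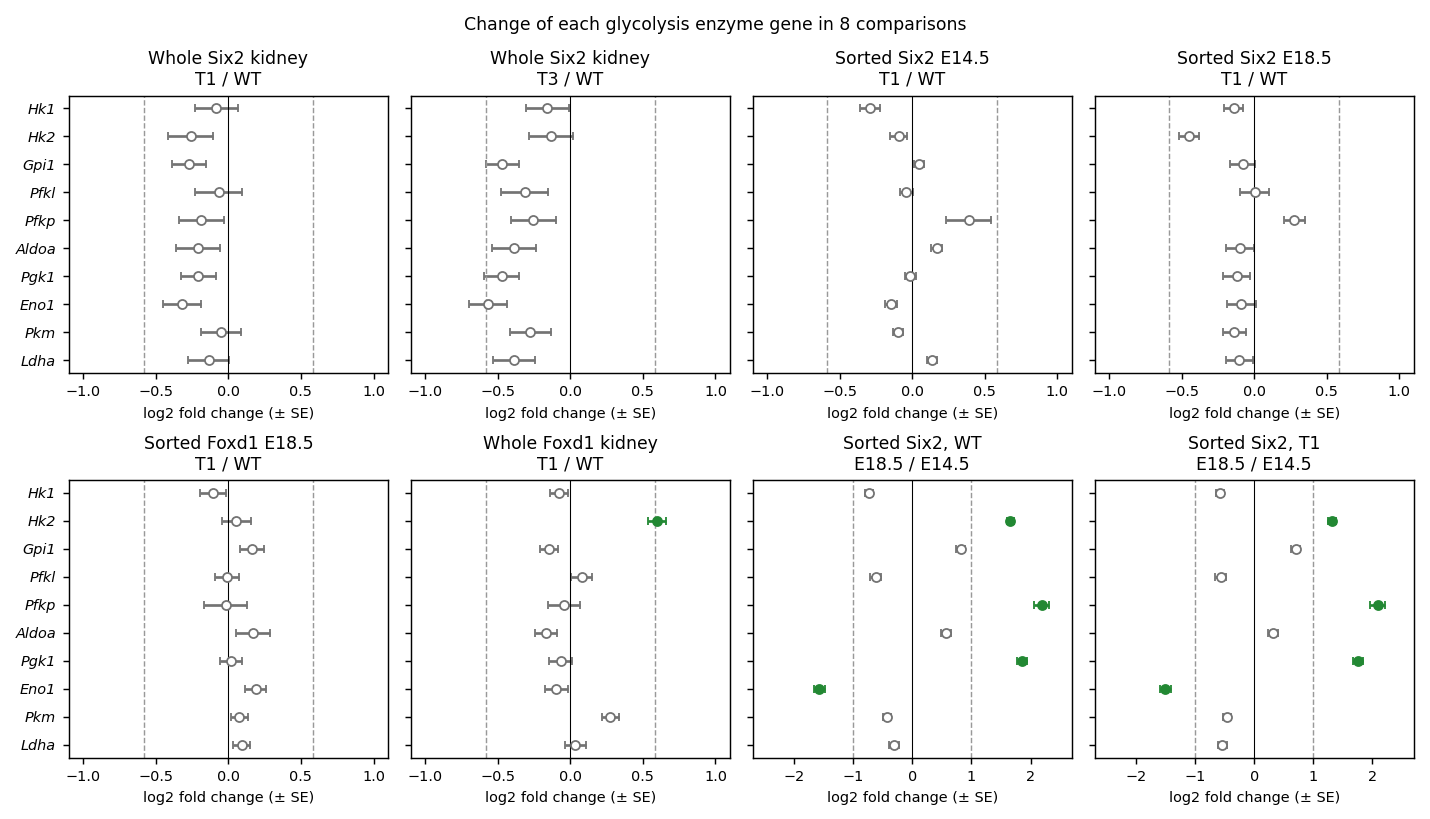
Log2 fold change ± SE of each of the 10 genes in 8 comparisons; filled green points were called and dashed lines mark the fold threshold. In each development panel 4 genes were called, 3 higher and 1 lower at E18.5.

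Whether the stage difference depended on genotype was tested with an interaction term (adjusted p under 0.05, no fold threshold). It was called for 1 of the 10 genes, beside 8.16% of all tested genes. This was *Hk2*, whose rise was smaller in Six2-ENL T1 cells, by -0.35 on the log2 scale (SE 0.09, adjusted p = 0.0295). The call was close to the threshold. It was lost (adjusted p 0.0515 to 0.0725) without ENL WT replicate 2 or 3 of E14.5, T1 replicate 1 or 2 of E14.5 or T1 replicate 2 of E18.5, and at 0.058 with libraries scaled by size only. For the other 9 genes the term ran from -0.26 for *Aldoa* to 0.16 for *Hk1*. Without T1 replicate 2 of E18.5, *Aldoa* (-0.42, adjusted p = 0.0229) and *Ldha* (-0.38, adjusted p = 0.0278) were called. Of the 18 carriers and regulators, 0 had a called positive and 4 a called negative term: *Mpc1* (mitochondrial pyruvate carrier, -0.75), *Pfkfb3* (-0.55), *Slc2a1* (the glucose carrier GLUT1, -0.51) and *Pdk2* (-0.43). The hypoxia-response genes had 2 positive and 5 negative called terms of 12, the gluconeogenesis genes 0 and 2 of 7, and the other glycolysis enzymes 0 and 0 of 15.

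The effect of ENL T1 within a stage was then asked. At E18.5 in sorted Six2 cells, 0 of the 10 genes passed both thresholds, beside 11.7% of all tested genes. The thresholds were 0.05 for the adjusted p and 1.5 for the fold. DESeq2 gave 0 and the edgeR exact test 0. In the edgeR quasi-likelihood test 2 had an unadjusted p under 0.05, beside 30.6% of all tested genes. An adjusted p under 0.05 was found for 2, beside 20.3%. *Hk2* stood at 164, 153 and 149 CPM in ENL WT and at 117, 105 and 118 in T1. All T1 libraries lay below all ENL WT libraries, and the log2 fold change was -0.45 (SE 0.07, adjusted p = 0.000314), short of the fold threshold. It ran from -0.49 to -0.36 over 19 settings. *Pfkp* stood at 48.1, 47.4 and 43.3 CPM in ENL WT and at 54.9, 57.4 and 55.2 in T1, higher without overlap by 0.28 (SE 0.07, adjusted p = 0.0137). The other 8 log2 fold changes ran from -0.14 to 0.00. *Pgk1* at 646, 607 and 596 CPM in ENL WT against 497, 653 and 542 in T1 and *Eno1* at 434, 371 and 346 against 322, 412 and 344 overlapped between genotypes. The median over the 10 was -0.10, against 0.02 over all tested genes.

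Other genes of glucose metabolism passed both thresholds. At E18.5 in T1, 2 of the other 15 glycolysis genes rose and 3 fell. Of the 7 gluconeogenesis genes 0 rose and 5 fell (*Fbp1* -3.38, *G6pc* -3.10, *Pck1* -2.26, *Pcx* -1.59). The carriers and regulators had 1 of 18 higher (*Slc2a3*, GLUT3, 1.04) and 1 lower (*Pdk4*, -1.40). Hypoxia-response genes had 1 of 12 higher (*Car9*, 1.31) and 3 lower (*Adm* -1.31, *Vegfa* -0.70, *Ndrg1* -0.69). *Gapdh* (-0.16, adjusted p = 0.107) and *Tpi1* (-0.14, adjusted p = 0.33) missed the threshold.

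Markers of cell types differed between these groups as well. The 8 proximal tubule markers summed to between 1392 and 1876 CPM in ENL WT and between 452 and 493 in T1, with 8 of 8 lower. The 8 progenitor markers went from 1146 to 1463 CPM in ENL WT to between 483 and 582 in T1, with 6 of 8 lower. Red cell markers summed to 107 to 211 CPM in ENL WT and 1553 to 2276 in T1 (5 of 8 higher), macrophage markers to 36.7 to 39.9 and 93.2 to 108 (6 of 8 higher), and stroma markers to 332 to 568 and 814 to 941 (5 higher and 2 lower of 8). Higher and lower counts were 0 and 1 of 7 endothelial markers, 2 and 3 of 8 ureteric tree markers, 1 and 1 of 7 tested skeletal muscle markers, 0 and 0 of 10 proliferation genes and 0 and 3 of 8 stress genes. The part of these cells in the difference of *Hk2* and *Pfkp* was not tested.

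At E14.5 in sorted Six2 cells, 0 of the 10 genes passed both thresholds in T1 against ENL WT, beside 6.40% of all tested genes. DESeq2 gave 0 and the edgeR exact test 0. In the edgeR quasi-likelihood test 6 had an unadjusted p under 0.05, beside 26.1% of all tested genes. An adjusted p under 0.05 was found for 3, beside 12.9%. These were *Hk1* (94.0, 114 and 109 CPM in ENL WT and 85.2, 85.0 and 86.0 in T1, log2 fold change -0.29, adjusted p = 0.0265), *Aldoa* (0.17, adjusted p = 0.0236) and *Ldha* (0.14, adjusted p = 0.0299). *Hk2* at 52.4, 47.4 and 47.7 CPM in ENL WT and 45.6, 47.0 and 44.2 in T1 was lower in each T1 library than in each ENL WT library, yet its log2 fold change of -0.09 had an adjusted p of 0.383. *Pfkp* at 8.59, 9.06 and 12.7 CPM in ENL WT and 11.9, 13.6 and 13.9 in T1 overlapped (0.39, adjusted p = 0.149), but without ENL WT replicate 3 it was called (0.59, adjusted p = 0.0123). Of the other lists, 1 of 15 glycolysis enzymes was higher (*Eno2*, 0.96) and 0 lower, 0 and 1 of 18 carriers and regulators (*Pdk4*, -1.90), 1 and 1 of 12 hypoxia-response genes, and 0 of 4 tested gluconeogenesis genes in either direction. *Gapdh* (-0.07, adjusted p = 0.48) missed the threshold, and *Tpi1* (0.20, adjusted p = 0.0102) was below the fold threshold. Stroma markers summed to 503 to 653 CPM in ENL WT and 941 to 1839 in T1, and progenitor markers to 2367 to 2669 and 1343 to 1604.

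In sorted Foxd1 cells at E18.5, 0 of the 10 genes passed the thresholds, beside 5.81% of all tested genes (0 with DESeq2). In the edgeR quasi-likelihood test 1 had an unadjusted p under 0.05, beside 23.3% of all tested genes. An adjusted p under 0.05 was found for 0, beside 10.7%. *Hk2* stood at 49.6, 50.4, 53.3 and 59.8 CPM in ENL WT and at 48.4, 60.7, 51.6 and 59.0 in T1, with full overlap (0.05, SE 0.10). The other log2 fold changes ran from -0.11 for *Hk1* to 0.19 for *Eno1*. *Tpi1* was higher in T1 (0.31, adjusted p = 0.00817) below the fold threshold, and *Gapdh* had 0.20 (adjusted p = 0.0734). *Eno2* (0.87) was the only called gene of the 9 other glycolysis enzymes tested, and *Fbp1* (-1.97) of the 5 gluconeogenesis genes tested. No carrier or regulator (0 of 15) and no hypoxia-response gene (0 of 11) was called. Proximal tubule markers summed to 115 to 297 CPM in ENL WT and 57.4 to 95.9 in T1 (4 of 6 tested lower), macrophage markers to 105 to 259 and 262 to 363 (6 of 8 higher) and stress genes to 5924 to 6539 and 4129 to 4929 (1 of 8 lower), none of which overlapped. Of 8 stroma markers 2 were lower, and of 8 progenitor markers 1 was higher. The part of these cells in the differences of *Eno2* and *Fbp1* was not tested. These libraries are the shallowest of the series, which limits what can be seen at this depth.

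Whole Foxd1 kidneys gave 1 of 10 genes called, beside 10.2% of all tested genes, and 2 with an adjusted p under 0.05, beside 33.4%. *Hk2* stood at 23.2, 21.8 and 23.4 CPM in ENL WT and at 33.6, 34.4 and 35.3 in Foxd1-ENL T1. All 3 mutant libraries lay above all control libraries (log2 fold change 0.60, SE 0.06, adjusted p = 7.26e-06), a change at the edge of the fold threshold, under which it came without ENL WT replicate 2 (0.57) or T1 replicate 3 (0.58) and with an offset for exon length (0.57). *Pkm* stood at 767, 797 and 764 CPM in ENL WT and at 914, 885 and 1021 in T1, higher by 0.28 (SE 0.06, adjusted p = 0.0036) below the fold threshold. The other 8 log2 fold changes ran from -0.17 for *Aldoa* to 0.08 for *Pfkl*, and the median over the 10 was -0.06 against -0.00 over all tested genes. Per kb, *Hk2* made up 17.0% ± 1.3 of the hexokinase pair in ENL WT and 24.6% ± 0.80 in T1 (SD, n = 3).

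Around them, 1 of 15 other glycolysis genes was higher (*Pklr*, 0.70) and 3 lower, among them *Pgam2* (-1.47) and *Aldoc* (-0.79), with *Gapdh* at -0.50 (adjusted p = 0.000294) and *Tpi1* at -0.16 (adjusted p = 0.0751). Gluconeogenesis genes had 1 of 7 higher (*Pck1*, 0.83) and 2 lower (*G6pc* -1.28, *Fbp1* -1.14), hypoxia-response genes 0 higher and 1 of 12 lower (*Vegfa*, -0.72), and carriers and regulators 0 of 18 in either direction. Progenitor markers summed to 618 to 639 CPM in ENL WT and 884 to 1074 in T1 (5 of 8 higher), and proximal tubule markers to 2696 to 2827 and 1184 to 1519 (7 of 8 lower). T1 replicate 1 of these kidneys stood apart with 141 CPM of summed skeletal muscle markers against 15.5 to 35.0 in the ENL WT libraries. The part of these cells in the change of *Hk2* was not tested.

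**Figure D4:**
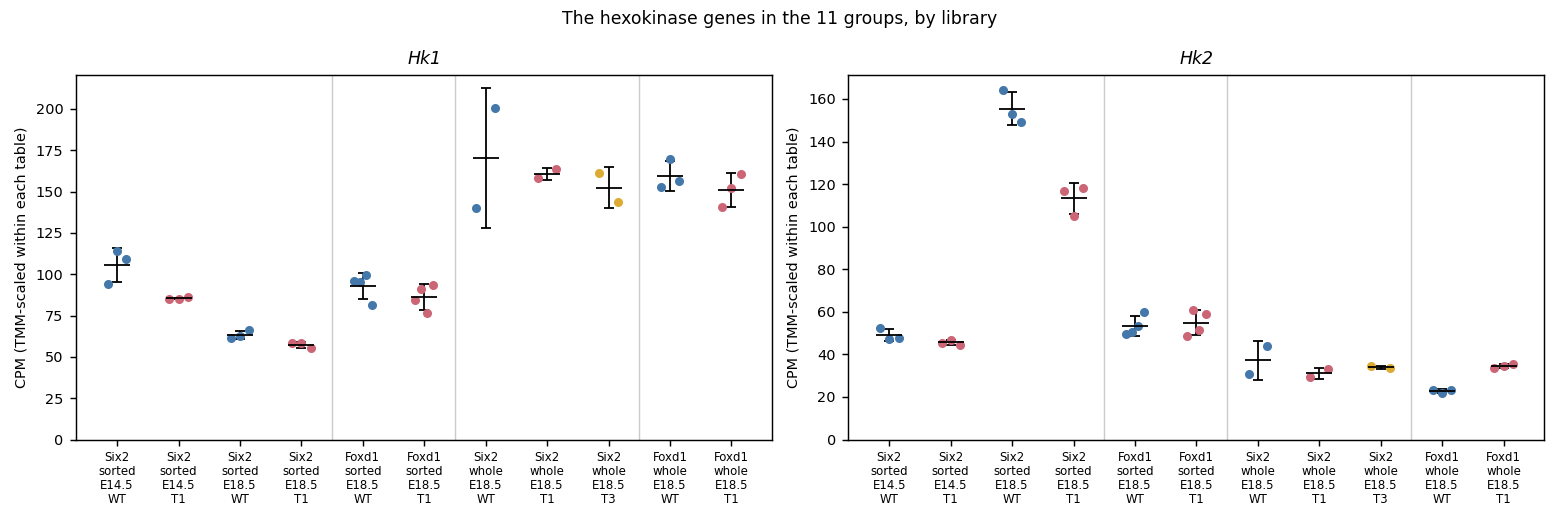
Levels of *Hk1* and *Hk2* in CPM, from 0, in every library of the 11 groups (blue ENL WT, red T1, yellow T3); lines are the mean ± SD of 2 to 4 libraries. For *Hk2*, the sorted Six2 libraries of E18.5 (105 to 164) lie above those of E14.5 (44.2 to 52.4). In whole Foxd1 kidneys the T1 libraries (33.6 to 35.3) lie above ENL WT (21.8 to 23.4). CPM are scaled within each experiment and kits differed between whole kidneys and sorted cells, so heights are not compared across experiments.

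In whole Six2 kidneys, 0 of the 10 genes were called in Six2-ENL T1 against ENL WT, beside 7.77% of all tested genes. DESeq2 also gave 0. In the edgeR quasi-likelihood test 2 had an unadjusted p under 0.05, beside 26.2% of all tested genes. An adjusted p under 0.05 was found for 0, beside 14.2%. All 10 log2 fold changes were negative, from -0.32 for *Eno1* to -0.05 for *Pkm*. In Six2-ENL T3, 0 were called, beside 9.62% (0 with DESeq2). In the edgeR quasi-likelihood test 5 had an unadjusted p under 0.05, beside 30.5% of all tested genes. An adjusted p under 0.05 was found for 3, beside 17.5%. These were *Eno1* (386 and 511 CPM in ENL WT, 322 and 283 in T3, -0.57, adjusted p = 0.023), *Gpi1* (339 and 406, 296 and 243, -0.47, adjusted p = 0.0296) and *Pgk1* (555 and 674, 484 and 402, -0.47, adjusted p = 0.033). Both mutants share the 2 control libraries. In ENL WT replicate 2, all 10 genes were higher than in replicate 1, as were 58.3% of the protein-coding genes with a mean over 5 CPM. Its skeletal muscle markers summed to 69.9 CPM against 11, and the part of muscle cells in this difference was not tested. Without ENL WT replicate 2, the sign turned for 7 of the 10 genes in T1 (*Hk1* 0.22, *Hk2* 0.04, *Pfkl* 0.23, *Pfkp* 0.06, *Aldoa* 0.02, *Pkm* 0.20 and *Ldha* 0.08). In T3 it turned for *Hk1* (0.14) and *Hk2* (0.17). Without ENL WT replicate 1, *Gpi1* (-0.59), *Pgk1* (-0.60) and *Eno1* (-0.75) were called in T3, and without T3 replicate 1 *Gpi1* (-0.61) and *Pgk1* (-0.60) were.

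T3 against T1 gave 0 of 10 genes, beside 0.00418% of all tested genes, with log2 fold changes of -0.26 for *Pgk1* to 0.13 for *Hk2*. In the edgeR quasi-likelihood test 0 had an unadjusted p under 0.05, beside 7.19% of all tested genes, and 0 were called with DESeq2. Of the other lists in T1, 0 rose and 3 fell of 15 glycolysis enzymes (among them *Pgam2* -1.14 and *Ldhb* -0.60), 0 and 5 of 7 gluconeogenesis genes, 0 and 2 of 12 hypoxia-response genes, and 0 and 1 of 18 carriers and regulators (*Mpc2*, -0.78). In T3 these were 1 and 4, 0 and 5, 1 and 2, and 0 and 0. *Gapdh* had -0.31 (adjusted p = 0.0267) in T1 and -0.54 (adjusted p = 0.00202) in T3, and *Tpi1* -0.25 (adjusted p = 0.213) and -0.42 (adjusted p = 0.0408). Proximal tubule markers summed to 2472 to 2823 CPM in ENL WT, 391 to 484 in T1 and 384 to 421 in T3.

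Within a group, the 10 genes often moved together from library to library. In 7 of the 32 libraries all 10 lay on 1 side of the mean of their own group: both ENL WT and both T3 libraries of whole Six2 kidneys, T1 replicates 1 and 3 of whole Foxd1 kidneys, and T1 replicate 2 of sorted Foxd1 cells. With 2 libraries in a group the deviations mirror each other. The median deviation on the log2 scale reached 0.20 in ENL WT replicate 2 of whole Six2 kidneys, 0.19 in T1 replicate 3 of whole Foxd1 kidneys and 0.18 in T1 replicate 2 of sorted Six2 cells at E18.5. The trend of all genes with GC content in a library moved with this median (Pearson r = 0.65 over 32 libraries, which share tables and group means).

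**Figure D5:**
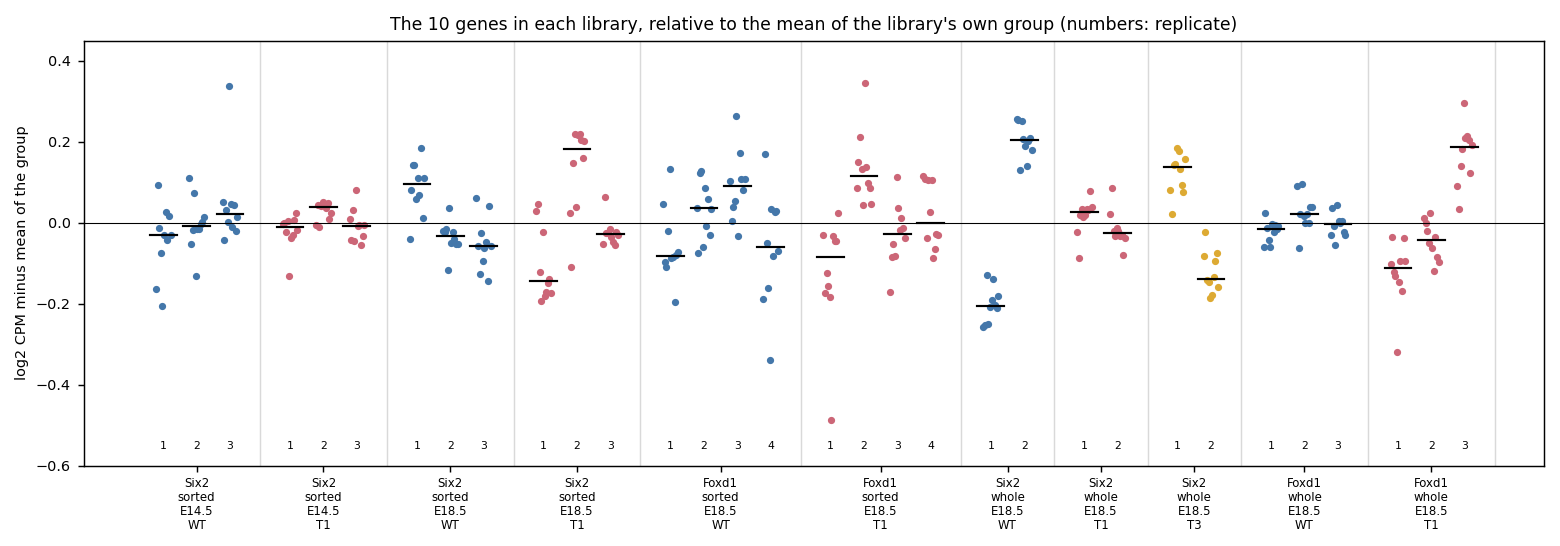
Log2 CPM of each of the 10 genes minus the mean of its own group, for each of the 32 libraries; points are genes and the black line is their median. All points lie on 1 side of 0 in 7 libraries, and medians reach 0.20.

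How the lineages compare at E18.5 was asked in sorted ENL WT cells, Foxd1 against Six2. *Hk1* (log2 fold change 0.75, SE 0.08, adjusted p = 1.46e-08) and *Ldha* (0.68, SE 0.08, adjusted p = 6.2e-08) were higher in Foxd1 cells, and *Hk2* (-1.35, SE 0.09, adjusted p = 3.22e-12), *Pfkp* (-0.93, SE 0.10, adjusted p = 2.51e-08) and *Pgk1* (-0.65, SE 0.09, adjusted p = 4.47e-07) were lower. The 5 of 10 called stand beside 72.7% of all tested genes, and the 8 with an adjusted p under 0.05 beside 85.7%. Lineage and sequencing run cannot be told apart, since read lengths differed. The median log2 fold change was 1.83 in the tenth of genes with the shortest exons and -0.96 in the tenth with the longest. With an offset for exon length, *Pfkp* had 0.00 and *Ldha* 0.48 and neither was called, *Hk1* had 1.37, *Pgk1* had -1.47, and *Pfkl* was called at 0.74. With an offset for GC content, *Hk1* (0.53) and *Pgk1* (-0.58) were not called and *Gpi1* (-0.59) was. Without the filter on low counts, *Hk1* (0.42) and *Ldha* (0.35) were not called and *Gpi1* (-0.71) was, and with library size only *Ldha* (0.58) was not. *Hk2* was the only gene called under all 20 settings (-1.69 to -1.08). With all near copies added, *Pgk1* stood at 349 ± 30.3 CPM (SD, n = 4) in Foxd1 cells and 700 ± 34.9 (n = 3) in Six2 cells, a log2 fold change of -0.81, *Gpi1* was called at -0.62, and *Eno1* turned from 0.17 to -0.32 without a call. With only the copies that have a symbol added, *Eno1* was called at 0.72. Of the other lists, 3 were higher and 5 lower of 12 tested glycolysis enzymes (*Gapdh* 2.19, *Pgam1* -1.94, with *Tpi1* at 0.29, adjusted p = 0.00353), 3 and 11 of 17 carriers and regulators, 2 and 3 of 6 gluconeogenesis genes, and 2 and 4 of 12 hypoxia-response genes.

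Whether ENL T1 acted differently in the 2 lineages was tested with an interaction term over the 14 libraries. It was called for 1 of the 10 genes, beside 15.9% of all tested genes. For *Hk2* the effect of T1 was 0.48 higher on the log2 scale in Foxd1 cells than in Six2 cells (SE 0.12, adjusted p = 0.00911), and the call held under all 23 settings, with values of 0.41 to 0.53. The other 9 terms ran from -0.31 for *Pfkp*, called at -0.42 without Foxd1 ENL WT replicate 4 (adjusted p = 0.0429), to 0.26 for *Eno1*. *Slc2a1* (0.70, adjusted p = 0.00011), *Adm* (1.67), *Tpi1* (0.44, adjusted p = 0.0159) and *Gapdh* (0.34, adjusted p = 0.0209) also had positive terms. Counts of called terms, positive and negative, were 3 and 0 of 12 other glycolysis enzymes, 6 and 1 of 17 carriers and regulators, 2 and 0 of 6 gluconeogenesis genes and 2 and 0 of 12 hypoxia-response genes.

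Several exons of these genes are shared with neighbours, which counting without strand cannot separate. The shared part of exon length was 15.3% in *Pkm* (chr9:59656368-59679375), 11.5% in *Gpi1* (chr7:34201330-34230336) and 5.58% in *Pfkp* (chr13:6579768-6648777), all on GRCm38. It was 1.84% in *Hk1* (chr10:62268855-62379908), 0.859% in *Aldoa* (chr7:126795234-126800751) and 0% in the other 5, *Hk2* (chr6:82725025-82774454), *Pfkl* (chr10:77986947-78010083), *Pgk1* (chrX:106187100-106203699), *Eno1* (chr4:150236721-150248879) and *Ldha* (chr7:46841475-46855627).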

How the data were processed

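RNA was measured in 32 libraries, grouped by the sample titles. The authors made the libraries from polyadenylated RNA (KAPA stranded kit for whole kidneys, SMART-Seq v4 for sorted cells), aligned reads to mm10 with HISAT2, counted them with HTSeq, strand ignored, and deposited whole-number counts without normalization. The annotation release is not given in the sources used here. Names, places and exon lengths (the union of exons) are those of GENCODE vM21 on GRCm38. *Aldoa* has 2 identifiers there, and the one with 2911 exon bases was used. Sequences are from RefSeq (GRCm38.p6).

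Counts were tested in R 4.3.3 with edgeR 4.0.16 (filterByExpr with minimum count 10 and minimum total 15, TMM factors, quasi-likelihood test, Benjamini-Hochberg adjustment over all tested genes). The 6 whole Six2 libraries shared 1 fit, as did the 12 sorted Six2 libraries for development and its interaction and the 14 sorted E18.5 libraries for lineage. Other genotype comparisons used their own libraries. The thresholds for a call were an adjusted p of 0.05 and a fold of 1.5, in development 0.01 and 2, and in interactions 0.05 alone. CPM are scaled by TMM factors within a table. Levels are compared between genes only per kb of exon. This length is the union of all annotated exons, which can exceed that of the transcripts present, so shares and orders per kb depend on the annotation. The sources do not tie each library to an animal, so p-values measure the spread between libraries, which may be technical. Near copies were found with blastn 2.17.0 (at least 90% identity over 200 bases). The models were tested on simulated data. Python 3.11.15 and matplotlib 3.10.9 drew the figures.

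The 10 genes and all lists (other glycolysis enzymes, carriers and regulators, gluconeogenesis, hypoxia response, cell type markers, proliferation, stress, near copies with a symbol) were chosen with earlier results of these data known. Named are the 10 genes, *Gapdh*, *Tpi1* and *Mllt1* always, at most 4 called genes of each metabolic list per comparison, by size of log2 fold change, at most 3 of each other list, and the 5 genes most like the 10 in sorted Six2 cells. The values of 1 gene that this rule names are not reported here. Alternatives were the edgeR exact test (the test of the study), DESeq2 1.42.0, RLE factors, library size only, no low-count filter, other fold thresholds, other libraries in the fit, replicate number as a block, near copies with a symbol added, and each library left out. Adding all near copies and offsets for 10 classes of exon length or GC content were chosen after seeing the data.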

Additional observations from a re-analysis of the deposited data

Results flagged for a closer look

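*Hk2* was the 1 gene of the 10 whose response to a contrast differed between groups by a test of the difference itself, and it did so in both interaction tests (edgeR quasi-likelihood test, adjusted over all tested genes). The 1 of 10 stands beside 8.16% of all tested genes in the stage interaction and 15.9% in the lineage interaction, so neither count sets the list apart. Its change from E14.5 to E18.5 in sorted Six2 cells differed between T1 and ENL WT by -0.35 on the log2 scale (SE 0.09, adjusted p = 0.0295). This call was lost in 6 of 21 settings. The response of *Hk2* to T1 differed between sorted Foxd1 and sorted Six2 cells of E18.5 by 0.48 (SE 0.12, adjusted p = 0.00911). Both tests use the same 6 sorted Six2 libraries of E18.5, where *Hk2* was at 149 to 164 CPM in ENL WT and 105 to 118 in T1, so they are not independent of each other. No library was flagged as outlying for any of the 10 genes in the 2 groups of 4 that could be tested, which made 20 tests.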

How the results depend on the processing

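Of the values of single genes under the alternatives, 2153 kept their direction and side of the threshold, 21 lost a call, 44 gained one and 72 changed sign, and none of those 72 was called with either sign. The calls of *Hk2*, *Pfkp*, *Pgk1* and *Eno1* in development held under all 19 alternatives. Without a fold threshold, the genes called of the 10 were 3 in Six2-ENL T3 kidneys, 3 and 2 in sorted Six2 cells of the early and late stage, 2 in whole Foxd1 kidneys, 10 in development in either genotype and 8 between lineages. With a fold over 2 they were 0 in whole Foxd1 kidneys and 1 between lineages, and at 0.05 for the adjusted p and 1.5 for the fold they were 7 in ENL WT development. Shares of all tested genes are not given beside the counts at these other thresholds, so these counts do not set the list apart. With the offset for exon length, chosen after seeing the data, whole Foxd1 kidneys had 0, and with library size only the stage interaction had 0. With each library left out in turn, counts ran from 0 to 3 in Six2-ENL T3, 0 to 1 in sorted Six2 cells at E14.5, 0 to 1 in whole Foxd1 kidneys, 0 to 2 for the stage interaction and 1 to 2 for the lineage interaction. Values with 2 libraries a group and with shallow Foxd1 libraries are the least certain.

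Log2 fold changes that changed sign were mostly near 0. With library size only they were *Pfkl* (0.0059) and *Pkm* (0.023) in Six2-ENL T1 kidneys, *Pfkl* (5.0e-05) and *Pgk1* (0.028) in sorted Six2 cells of E14.5, *Gpi1* (0.013) and *Eno1* (0.0047) in those of E18.5, *Pkm* (0.016) for the stage interaction, *Aldoa* (-0.00037) between lineages and *Hk1* (-0.067) for the lineage interaction. *Pfkl* in sorted Six2 cells of E18.5, at 0.0035 as reported, had -0.0051 with DESeq2, -0.0051 with RLE factors, -0.0030 with all groups of the table in the fit, -0.0028 with the replicate block, -0.012 with the offset for exon length and -0.038 with that for GC content. Between lineages, the values were -0.10 for *Pfkl*, -0.23 for *Aldoa* and -0.17 for *Eno1* without the filter, 0.13 for *Gpi1* and -0.39 for *Aldoa* with the offset for exon length, -0.034 for *Pfkl*, -0.17 for *Aldoa* and -0.050 for *Eno1* with that for GC content, and -0.32 for *Eno1* with all near copies. In sorted Foxd1 cells *Pgk1* had -0.0030 without the filter and, with the offset for exon length, *Pfkl* had 0.011, *Pfkp* 0.026 and *Pgk1* -0.042. For the lineage interaction *Pfkl* had 0.013 with the offset for exon length and *Hk1* -0.033 with that for GC content. With each library left out, the ranges that crossed 0 were -0.31 to 0.22 for *Hk1*, -0.49 to 0.042 for *Hk2*, -0.29 to 0.23 for *Pfkl*, -0.38 to 0.061 for *Pfkp*, -0.38 to 0.019 for *Aldoa*, -0.24 to 0.20 for *Pkm* and -0.30 to 0.079 for *Ldha* in Six2-ENL T1 kidneys, -0.39 to 0.14 for *Hk1* and -0.36 to 0.17 for *Hk2* in T3, and -0.27 to 0.10 for *Pfkp* in T3 against T1. They were -0.20 to 0.012 for *Eno1* and -0.12 to 0.10 for *Pfkl* in sorted Six2 cells of E18.5, -0.11 to 0.066 for *Pfkp*, -0.025 to 0.079 for *Pgk1* and -0.058 to 0.034 for *Pfkl* in sorted Foxd1 cells, and -0.20 to 0.10 for *Pfkp*, -0.016 to 0.15 for *Pfkl* and -0.065 to 0.087 for *Ldha* in whole Foxd1 kidneys. For the stage interaction they were -0.30 to 0.0018 for *Pfkp*, -0.11 to 0.092 for *Pfkl* and -0.086 to 0.12 for *Eno1*, and for the lineage interaction -0.12 to 0.065 for *Pfkl* and -0.058 to 0.051 for *Hk1*. The cause of these changes of sign was not tested.

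Same-numbered libraries were not treated as pairs. Correlations of deviations between same-numbered libraries ran from -0.17 to 0.27 over 31 pairs. Some of these pairs cross stages, and pairs from groups of 2 libraries repeat the same value. Libraries of different numbers were not compared in this way, so these values cannot tell whether same-numbered libraries belong together. With replicate number as a block, the counts were the same as without it in every comparison (4 in development of either genotype, 5 between lineages, 1 in whole Foxd1 kidneys and for each interaction, and 0 elsewhere). No libraries of a group were copies of each other (lowest chi-square per degree of freedom 1.36).

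Over all tested genes, the counts called without and with a fold over 2 were 3393 and 1120 in Six2-ENL T1 kidneys (1859 as reported, 1163 and 1207 without T1 replicate 1 or 2), 4189 and 1344 in T3 (2303), 2884 and 846 in sorted Six2 cells of E14.5 (1432), 4603 and 1682 in those of E18.5 (2648), 1363 and 347 in sorted Foxd1 cells (739) and 6732 and 1084 in whole Foxd1 kidneys (2051). T3 against T1 gave 1 gene as reported, 89 with the exact test, 71 with DESeq2, 300 without the filter, 14 with the 2 groups alone and 0 to 12 with a library left out. The stage interaction gave 2059 genes, and 1327 without ENL WT replicate 2 of E18.5. With library size only, its called positive and negative terms were 1268 and 882 (995 and 1064 as reported), and those of the lineage interaction 935 and 1555 (1226 and 1135).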

Other observations

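Over the 12 sorted Six2 libraries the 10 genes did not vary as 1 group. Pairwise Pearson r between their log2 CPM ran from -0.98 (*Pfkp* and *Eno1*) to 0.99 (*Gpi1* and *Pgk1*) over 45 pairs, with a mean of -0.07. These points share 2 stages, which set most of the variation. Genes outside every list whose level was most like the mean of the 10 (each scaled to equal variance) were *Pcnx2* (Pearson r = 0.82), *Gm11636* (0.80), *Gm4335* (0.76), *Gm42788* (0.76) and *Ly6d* (0.75), given as a description over 12 libraries. This mean averages genes that rose with genes that fell. On the scaled axis it ran only from -0.09 to 0.07 at E14.5 and from -0.43 to 0.35 at E18.5. The likeness is to this mean and does not speak for single genes of the 10.

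The share of lactate dehydrogenase also differed between tables and genotypes. Per kb, *Ldha* made up 36.9% ± 1.1 of the sum of *Ldha* and *Ldhb* in ENL WT whole Foxd1 kidneys and 45.9% ± 2.0 in Foxd1-ENL T1 (SD, n = 3, ranges 36.0% to 38.0% and 44.7% to 48.2%). In whole Six2 kidneys it was 48.0% and 53.9% in the ENL WT libraries and 55.3% to 59.7% in the 4 mutant libraries. In sorted cells it lay between 62.6% and 73.7% in all groups.

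Among the promoter windows of the 10 genes, the RefSeq window nearest to the start of *Ldha* held 7 of the hypoxia response letters (5 ACGTG and 2 GCGTG). Overlapping matches on both strands, at bases 106 and 107 and at 203 and 204, were counted separately. This window lies 4329 bases from the start in the gene annotation used for the counts. The nearest windows of *Hk1*, *Gpi1*, *Aldoa* and *Pkm* held 0. Windows farther from the start did hold matches for *Hk1* (5, at 39487 bases), *Pkm* (2, at 859) and *Aldoa* (1 each, at 1497 and 1573). The counts of 0 for these 3 genes therefore hold only for the window chosen. Of all windows, 8.93% held 3 or more, against 2 of the 10 nearest windows.

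The 5 near copies that have a symbol of their own gave 0 higher and 2 lower of 4 tested in ENL WT development and 0 called in either direction in sorted Six2 cells of either stage.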
